A study of Canis lupus familiaris with 12 samples.

Results

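The muscle miRNAs miR-1, miR-206, miR-133a, miR-133b and miR-133c were examined in the small RNA libraries of dog atria. They were taken from the table of miRNA tags by name (cfa-miR-1, cfa-miR-206 and every mature miRNA whose name begins with cfa-miR-133), which gave 5 of the 350 mature miRNAs listed. The pacing group (libraries P1, P2 and P3) was 3 mongrel dogs of either sex, whose right atrium was stimulated by an implanted pacemaker for 14 days at 500 bpm and 5 V. The control group (libraries C1, C2 and C4) was 3 such dogs with the pacemaker implanted and not switched on. By the study's methods each library is the right atrium of 1 dog, which the markers of library C4 go against (below), and total RNA libraries of the same names give the mRNA values below. That a small RNA and a total RNA library of one name come from the same dog is not stated. Rapid pacing is a model of atrial fibrillation, and the atrium holds muscle cells, fibroblasts, vessels and blood cells, so fewer cells of a type and less RNA per cell cannot be told apart in these values.

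A miRNA is a short RNA that guides an Argonaute protein to mRNAs whose sites pair with its seed, bases 2 to 8, and the mRNA is then less translated or degraded. In mammals miR-1 and miR-133a are made together from shared primary transcripts in heart and skeletal muscle, under the muscle transcription factors SRF, MEF2 and myocardin. miR-206 and miR-133b come from a separate locus that is known for its activity in skeletal muscle. In heart muscle miR-1 and miR-133 are known as regulators of ion channels, growth and matrix genes.

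The sequences below are those of the deposited table. They show which of the 5 miRNAs share a seed, written in capitals (bases 2 to 8).

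cfa-miR-1: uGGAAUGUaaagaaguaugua

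cfa-miR-206: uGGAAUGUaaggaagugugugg

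cfa-miR-133a: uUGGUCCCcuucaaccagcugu

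cfa-miR-133c: uUGGUCCCcuucaaccagcug

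cfa-miR-133b: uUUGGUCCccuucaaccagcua

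miR-1 and miR-206 have the same seed. Counted from the 5′ end, the first 21 bases of miR-206 differ from miR-1 by A11G, A17G and A21G (the base of miR-1 first), and miR-206 is 1 base longer. miR-133a and miR-133c also have the same seed, and the whole of miR-133c (21 bases) equals the first 21 bases of miR-133a. A read of 21 or fewer bases from the start of this sequence can therefore come from either gene. miR-133b as listed shares a run of 20 bases with miR-133a that begins at base 2 of miR-133b and at base 1 of miR-133a, so its listed seed is shifted by 1 base. No other listed miRNA has any of these 3 seeds.

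miR-1 is listed under 2 precursors with the same tags, and it was counted once. In RefSeq (assembly UU_Cfam_GSD_1.0, used for names and neighbours only) the genes form 3 pairs. MIR1-2 and MIR133A lie next to each other on chromosome 7 inside MIB1, a ubiquitin ligase gene that the mRNA table places at chr7:66178593-66310709 in canFam3. MIR1-1 and MIR133C are neighbours on chromosome 24, and MIR206 and MIR133B are neighbours on chromosome 12.

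The libraries held 829553 (P2) to 1719426 (P1) miRNA tags in the pacing group and 1051774 (C1) to 1815172 (C2) in the control group. The library names are those of the table columns. The labels of the samples run from C1 to C6 instead, and there the title C4 belongs to a paced dog. C4 was taken as a control here because its column carries that letter. It also stood apart in the mRNA table, where NPPA (atrial natriuretic peptide) had only 7.78 FPKM (fragments scaled to transcript length and depth), against 1658 FPKM or more elsewhere. MYL2, a light chain of ventricular myosin, had 2331 FPKM there, against 108 FPKM or less elsewhere. The 5 listed atrial muscle markers summed to 7093, 6744 and 12986 FPKM in P1, P2 and P3, against 5965, 2645 and 37.6 FPKM in C1, C2 and C4, and the 4 listed ventricular markers to 283, 852 and 260.2 FPKM, against 209.5, 193.7 and 7995 FPKM. In C4 markers of atrial muscle were thus low and those of ventricular muscle high, which goes against its label as atrium. The atrial sum, mostly NPPA and MYL4, was higher in each paced library than in each control also without C4. MYL4, the atrial light chain, was 3382, 3188 and 4378 FPKM with pacing, against 2656, 892 and 19.4 FPKM in controls. GJA5, MYL4 and NPPA, 3 of the 5 markers, were higher in each paced library, against 4.90% of all mRNAs tested. The other markers overlapped also without C4. KCNA5 was highest in C1 (2.85 FPKM) and similar in C2 and C4 (0.524 and 0.539 FPKM). NR2F2 in C2 (8.87 FPKM) exceeded P2 and P3 (5.66 and 8.48 FPKM). The part of these differences in the levels of the miRNAs was not tested, and values without C4 are given for each member. The test of each miRNA was the quasi-likelihood test of edgeR on tag counts, adjusted over the 251 miRNAs with 10 or more tags. It called 0 miRNAs (0.00%) at an adjusted p under 0.05, while 28 (11.2%) had an unadjusted p under 0.05, 7.97% lower and 3.19% higher with pacing, and DESeq2 called 4. A 2-fold change with an unadjusted p of 0.05 or less was found for 26 (10.4%), of which 18 were lower (7.17%) and 8 higher (3.19%) with pacing. p-values rest on the spread between 3 dogs a group, which edgeR estimates in part from the other miRNAs.

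miR-1 was among the most abundant miRNAs of the atrium, and its level did not differ detectably with pacing. It took 33152, 133102 and 99905 CPM (tags per 1000000 miRNA tags of the library) in P1, P2 and P3, against 62871, 51494 and 118796 in C1, C2 and C4. It ranked 10th, 1st and 3rd of all miRNAs in the 3 paced libraries and 8th, 7th and 2nd in the control libraries. The lowest and the highest library were both paced, and the groups overlapped. The mean was 88720 ± 50905 CPM with pacing and 77720 ± 36025 in controls (SD, n = 3 each). The log2 fold change, pacing over control, was 0.15 (SE 0.58, 95% interval -1.12 to 1.43, edgeR adjusted p = 0.938). The interval includes a 2-fold change in either direction. Without C4 the log2 fold change was 0.62 (edgeR adjusted p = 0.801).

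miR-133a, which is made with miR-1 from the same transcripts, was the second of the 5 in CPM. It had 10659, 5683 and 10626 CPM in P1, P2 and P3, against 7650, 4643 and 13656 in C1, C2 and C4. It ranked between 15 and 20 in all 6 libraries. The groups overlapped, with means of 8989 ± 2864 with pacing and 8649 ± 4589 in controls (SD, n = 3 each). The log2 fold change was -0.16 (SE 0.47, 95% interval -1.18 to 0.87, edgeR adjusted p = 0.911). This sign was not stable, since it was positive under 11 of 19 alternatives, among them without C4 (0.37).

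Few tags were listed as miR-133c, whose gene is the neighbour of MIR1-1 on chromosome 24. Its sequence is the start of miR-133a and the assignment of shared reads is not given. The tags therefore do not show the output of that gene. The listed level of miR-133c was 80.3, 25.3 and 100.02 CPM in P1, P2 and P3, against 40.9, 23.7 and 71.2 in C1, C2 and C4. These values rest on 138, 21 and 108 tags with pacing and on 43, 43 and 85 tags in controls. P2 lay among the controls, and the groups overlapped. The log2 fold change was 0.38 (SE 0.59, 95% interval -0.91 to 1.66, edgeR adjusted p = 0.833). It was 0.90 without C4, 0.91 without P2 and -0.095 without P3.

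miR-133b had the largest positive fold change of the 5, and it did not pass the test. Its level was 52.3, 91.6 and 125.0 CPM in P1, P2 and P3, against 33.3, 21.5 and 57.8 in C1, C2 and C4. The counts behind these were 90, 76 and 135 tags with pacing and 35, 39 and 69 tags in controls. The exact 95% counting intervals ran from 42.1 to 64.3 CPM for P1, the lowest paced library, and from 45.0 to 73.2 for C4, the highest control library. P2 and P3 were above every control, and P1 was below C4. No member had groups without overlap in CPM, and 23 of the 251 miRNAs did (9.16%). The log2 fold change of miR-133b was 1.16 (SE 0.59, 95% interval -0.14 to 2.45, edgeR adjusted p = 0.455). It was positive under all 19 alternatives, between 1.003 and 1.77, and the lowest adjusted p among them was 0.253. Without C4 it was 1.64 (edgeR adjusted p = 0.326).

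miR-206, a skeletal muscle miRNA with the seed of miR-1, had few tags in most libraries and many in 1. It had 7, 28 and 17 tags in P1, P2 and P3 (4.07, 33.8 and 15.7 CPM), against 3, 1904 and 34 tags in C1, C2 and C4 (2.85, 1049 and 28.5 CPM). C2 was 31.1-fold above the next library, P2. Of the other controls, C1 was just below the paced libraries and C4 was among them. The log2 fold change was -4.48 (SE 1.64, 95% interval -8.07 to -0.89, edgeR adjusted p = 0.362). miR-206 was the only member among the 18 miRNAs (7.17%) that were lower with pacing by at least 2-fold at an unadjusted p of 0.05 or less. This rests on C2. Without C2 the log2 fold change was 0.28 (edgeR adjusted p = 0.989). Without C1, the lowest library, it was -5.07 (edgeR adjusted p = 0.0221), and DESeq2 gave no p for miR-206. Without C4 it was -5.03 (edgeR adjusted p = 0.217). On log2 of CPM plus 1 it was only -1.78 (limma adjusted p = 0.851).

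**Figure D1:**
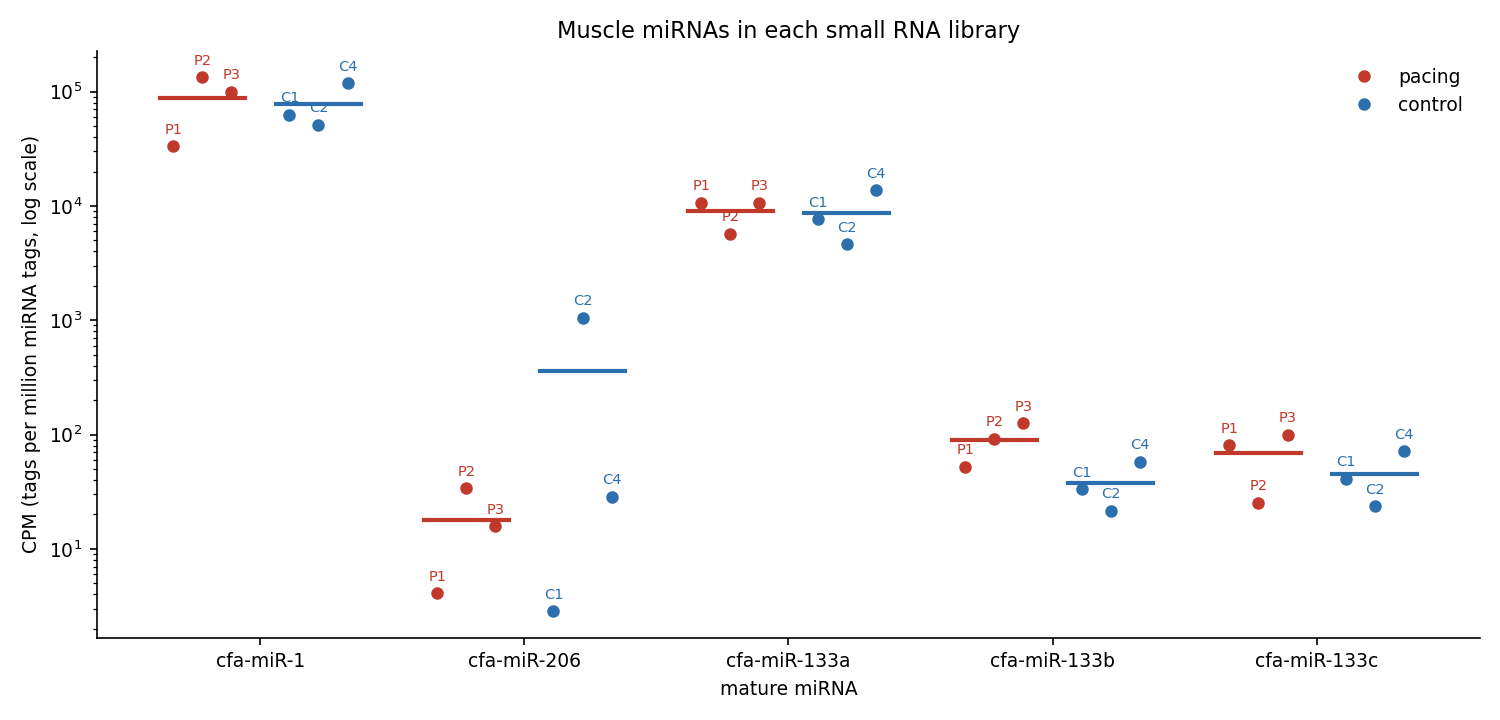
CPM (log scale) of the 5 muscle miRNAs in each small RNA library, pacing in red and control in blue, with lines at the group means (n = 3 each). miR-1 reaches 133102 in P2, and miR-206 stands at 1049 in C2 and between 2.85 and 33.8 in the other libraries.

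Together the 5 miRNAs took 4.39%, 13.9% and 11.1% of the tags in P1, P2 and P3, against 7.06%, 5.72% and 13.3% in C1, C2 and C4. miR-1 made up most of this, and the other members together took 1.08%, 0.583% and 1.09% with pacing and 0.773%, 0.574% and 1.38% in controls. The summed share averaged 9.79% ± 4.88 with pacing and 8.68% ± 4.02 in controls (SD, n = 3 each; 2-sided exact permutation test, p = 0.9). The smallest p that 3 libraries against 3 can give is 0.1. The difference of 1.11 percentage points had no stable sign, since it was -0.95 without P2, -0.37 without C2, 3.40 without C4 and 3.804 without P1.

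**Figure D2:**
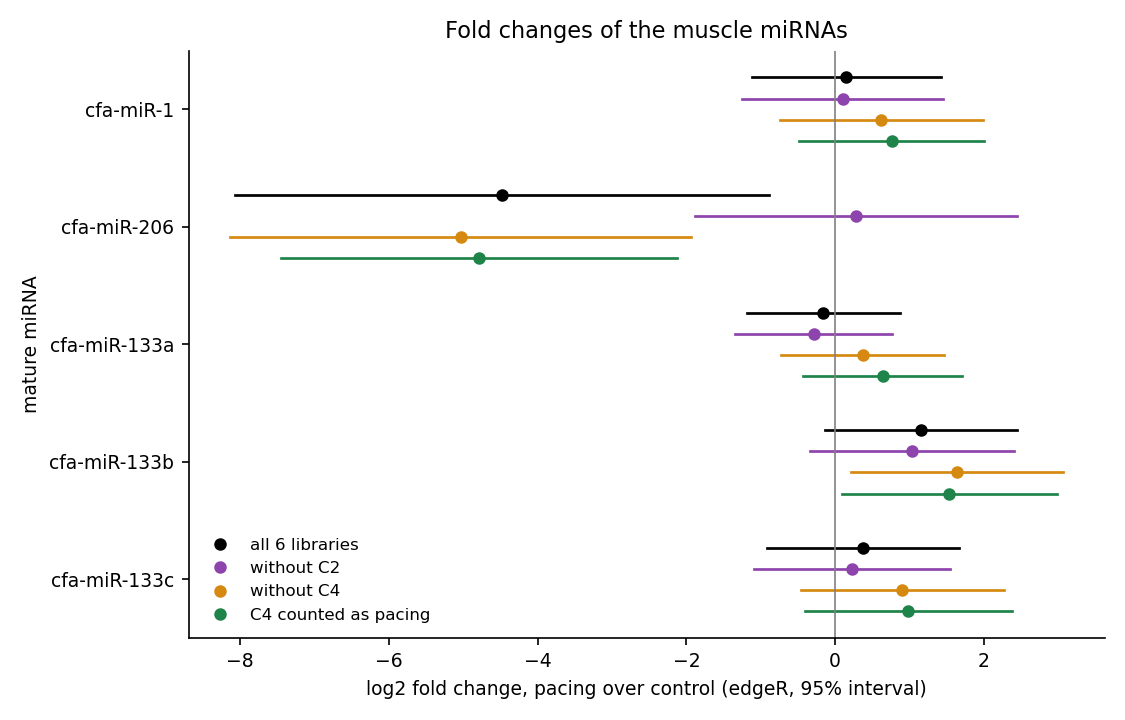
Log2 fold change (pacing over control) of each muscle miRNA with its 95% interval from edgeR, for all 6 libraries, without C2, without C4, and with C4 counted as pacing. The value of miR-206 is -4.48 with all libraries and 0.28 without C2, and miR-133b stays above 0 in each.

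The ratio of 2 members within a library does not depend on scaling between libraries. miR-1 had 3.11, 23.4 and 9.40 tags for each tag of miR-133a in P1, P2 and P3, against 8.22, 11.1 and 8.70 in C1, C2 and C4. The ratio thus spanned 7.53-fold among paced libraries and 1.35-fold among controls, while the group means of its log2 differed by -0.07 (2-sided exact permutation test, p = 1). P1 was low and P2 was high, with all controls and P3 between them. Of all libraries P1 also had the most miRNAs with tags (299) and P2 the fewest (213). The part of such differences between libraries in the ratio was not tested. Counting error of this log2 ratio was at most 0.02 (SD). With 1 library left out the difference ran from -0.78 without P2 to 0.68 without P1, and it was also positive without C2 (0.060).

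The wider spread with pacing held for the other ratios of miR-1 and the 3 miR-133. In all 6 such ratios the SD of the log2 ratio was larger in the pacing group (0.55 to 1.86) than in the control group (0.03 to 0.26). The 6 ratios share their tags, and no test of the spread was made. In each ratio that includes miR-206 the SD was instead larger in controls (4.55 to 4.82) than with pacing (0.53 to 2.39). In CPM the SD relative to the mean was larger with pacing for miR-1 and miR-133c. It was larger in controls for miR-133a (53.1% against 31.9%), miR-133b (49.4% against 40.6%) and miR-206. miR-133c was 0.753%, 0.445% and 0.941% of miR-133a in P1, P2 and P3, against 0.534%, 0.510% and 0.522% in C1, C2 and C4. The 3 controls thus differed by 1.05-fold, within the counting error of this ratio, whose SD was 0.12 to 0.32 on the log2 scale. The means of the log2 ratio differed by 0.38 (exact permutation p = 0.4), by 0.15 without P3 and by 0.69 without P2.

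miR-133b relative to the abundant miR-133a and miR-1 was higher in each paced library than in each control. It was 0.491%, 1.61% and 1.18% of miR-133a in P1, P2 and P3, against 0.435%, 0.463% and 0.423% in C1, C2 and C4, a 2.22-fold difference of geometric means. P2 and P3 were well above the controls, whereas the gap between P1 and C2, 0.09 on the log2 scale, was below its counting error (SD 0.28). Per 10000 tags of miR-1 there were 15.8, 6.88 and 12.5 tags of miR-133b with pacing, against 5.29, 4.17 and 4.87 in controls, a 2.33-fold difference. Here the closest libraries were P2 and C1, with a gap of 0.38 and a counting SD of 0.29. Both differences had the smallest exact permutation p that is possible, 0.1, and an adjusted p of 0.55 over the 11 values tested in this way. The ratio of miR-133b to miR-133c overlapped between the groups (difference of the log2 ratio 0.77, exact permutation p = 0.4). The listed miR-133b and miR-133a share a run of 20 bases, and how reads were assigned between them is not given. Whether some tags listed as miR-133b come from miR-133a was not tested.

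Of the 250 tested miRNAs other than miR-133a, the ratio to miR-133a did not overlap between the groups for 26 (10.4%), and for 11 (4.40%), miR-133b among them, it was higher in every paced library. The ratio to miR-1 did not overlap for 5 (2.00%), and it was higher with pacing for 3 (1.20%), namely miR-133b, miR-29b and a predicted miRNA of at most 5 tags a library, named here after their values were seen. With C4 counted as pacing the ratio of miR-133b to miR-133a no longer separated the groups, as C4 had the lowest value of all. The difference of the log2 ratio was then 0.82 (exact permutation p = 0.267). P1, P2 and P3 differed in the order of the members, so that miR-133b exceeded miR-133c in P2 and P3 (76 against 21 tags and 135 against 108 tags) and was below it in P1 and in all 3 controls.

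**Figure D3:**
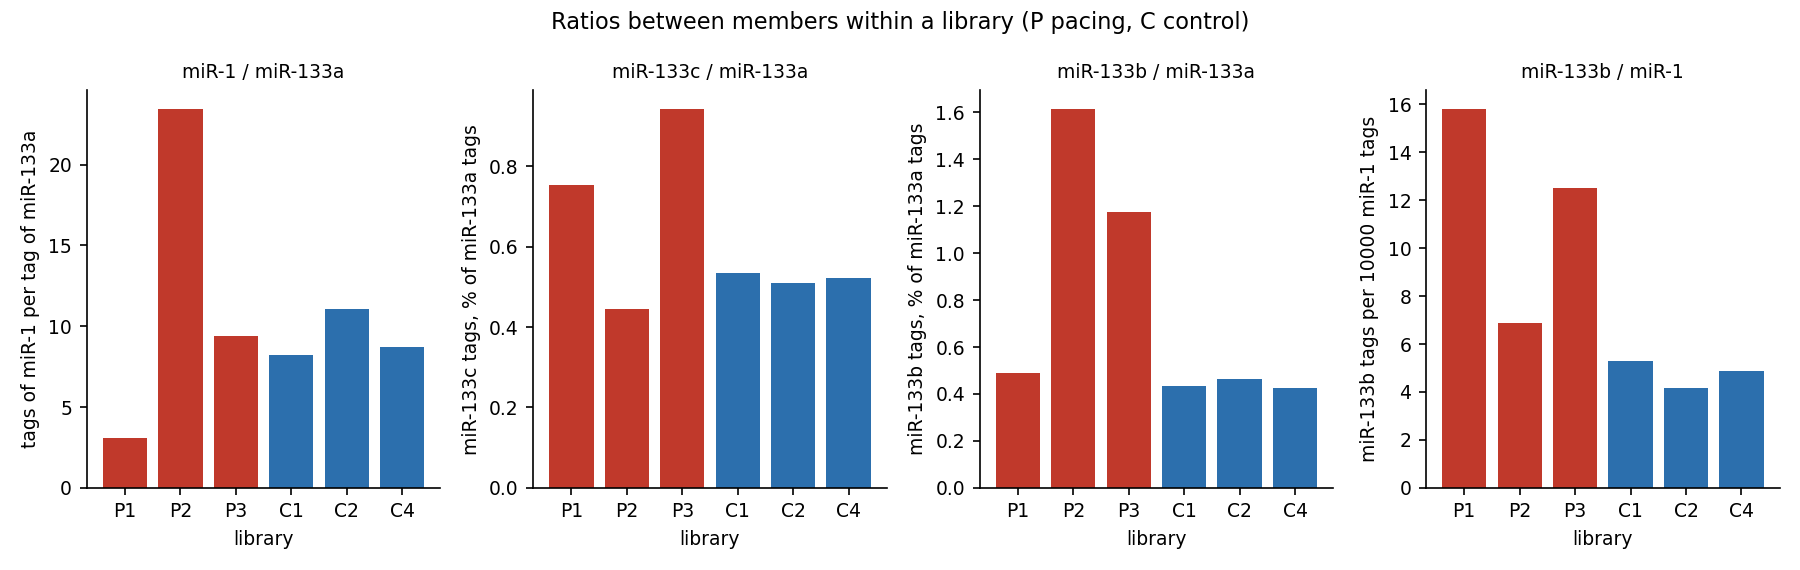
Ratios between members within each library, with paced libraries P1 to P3 in red and controls C1, C2 and C4 in blue: tags of miR-1 per tag of miR-133a, miR-133c and miR-133b as percent of miR-133a, and miR-133b per 10000 tags of miR-1. The controls are close to each other in every panel (0.423% to 0.463% for miR-133b over miR-133a) and the paced libraries are spread. For that log2 ratio the SD between controls was 0.07, below its counting SD of 0.24, 0.23 and 0.17 in C1, C2 and C4.

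Log2 levels of miR-1 and miR-133a over the 6 libraries had a Pearson r of 0.099 (exact permutation p = 0.856, adjusted p = 0.907 over the 10 pairs of members) and a Spearman rho of 0.029 (exact permutation p = 1). Without P1 and P2, the libraries farthest from the median of miR-1, r was 0.97, a value over 4 libraries that this choice can set and that shows no relation by itself. miR-133a and miR-133c, whose listed sequences overlap in full, had an r of 0.92 (exact permutation p = 0.0194, adjusted p = 0.194) and a rho of 0.77 (exact permutation p = 0.103, adjusted p = 0.604). Without C2 and P2 their r was 0.66. The chromosome 12 neighbours miR-206 and miR-133b had an r of -0.40 (exact permutation p = 0.438, adjusted p = 0.625) and a rho of -0.029 (exact permutation p = 1). Without C2 and P3, the libraries farthest from the median of miR-133b, r was 0.84 over 4 libraries, so no relation is read from either value. There were 0.0778, 0.368 and 0.126 tags of miR-206 per tag of miR-133b in P1, P2 and P3, against 0.0857, 48.8 and 0.493 in C1, C2 and C4. In C2, therefore, miR-206 was high and its neighbour miR-133b was the lowest of all libraries.

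Among 87 other miRNAs with a mean of 100 or more tags, the patterns most like each abundant member were described by Pearson correlation of log2 levels over the 6 libraries. miR-133a was closest to miR-499 (0.95), the miRNA of a slow myosin gene, then to the endothelial miR-126 (0.92) and to miR-381 (0.89). The highest values of miR-1 were 0.72 with miR-30d, 0.55 with miR-26b and 0.54 with miR-26a. miR-206 was closest to 2 predicted miRNAs of chromosome 8 (0.97 and 0.86) and to miR-127 (0.82). All 3 were highest in C2, where miR-127 had 4251 CPM, against 411 to 1135 in the other libraries. With 6 libraries 1 library can set such values.

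The other heart muscle miRNAs stood apart in C4. miR-499 had 34685, 13265 and 22224 CPM in P1, P2 and P3, against 20608, 8466 and 68018 in C1, C2 and C4, and C4 was 1.96-fold above the next library. miR-208a, the miRNA of the alpha-myosin heavy chain gene, had 168, 71.1 and 232 CPM with pacing, against 82.7, 23.7 and 0 in controls. The 0 in C4 allows up to 2.51 CPM (3 tags). Its log2 fold change was 2.02 (SE 1.05, edgeR adjusted p = 0.457), a fitted value that depends on the 0 in C4. miR-208b, the miRNA of the beta-myosin gene, had 19.8, 6.03 and 12.04 CPM with pacing, against 0, 1.65 and 28.5 in controls. C4 thus had no tag of miR-208a and the most miR-208b, miR-499 and miR-133a, and the part of heart chamber in the levels of the members was not tested.

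Markers of other cell types were set beside these values. For skeletal muscle, the tissue known for miR-206, 15 of 16 markers are listed in the mRNA table and none reached a mean of 1 FPKM. Their summed level was 0.278, 2.13 and 0.902 FPKM in P1, P2 and P3, against 0.727, 0.500 and 0.613 in C1, C2 and C4. In the total RNA library named C2, 11 of the 15 were at 0, and MYF5, MYF6, MYOG, PAX7 and TNNI2 were at 0 in all 6 libraries. The summed level in C2 was thus below that of 4 other libraries while its miR-206 was the highest. Read counts of the mRNAs were not used here. The mitochondrial mRNA COX3 is also listed at 0 in all 3 paced libraries, against 64079, 44959 and 67623 FPKM in C1, C2 and C4. A listed 0 therefore does not show that an mRNA was absent. The cause of this difference between the groups, and its part in other FPKM values, was not tested. Heart muscle mRNAs in general summed to 5729 to 8661 FPKM with pacing and to 5688 to 9193 FPKM in controls.

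**Figure D4:**
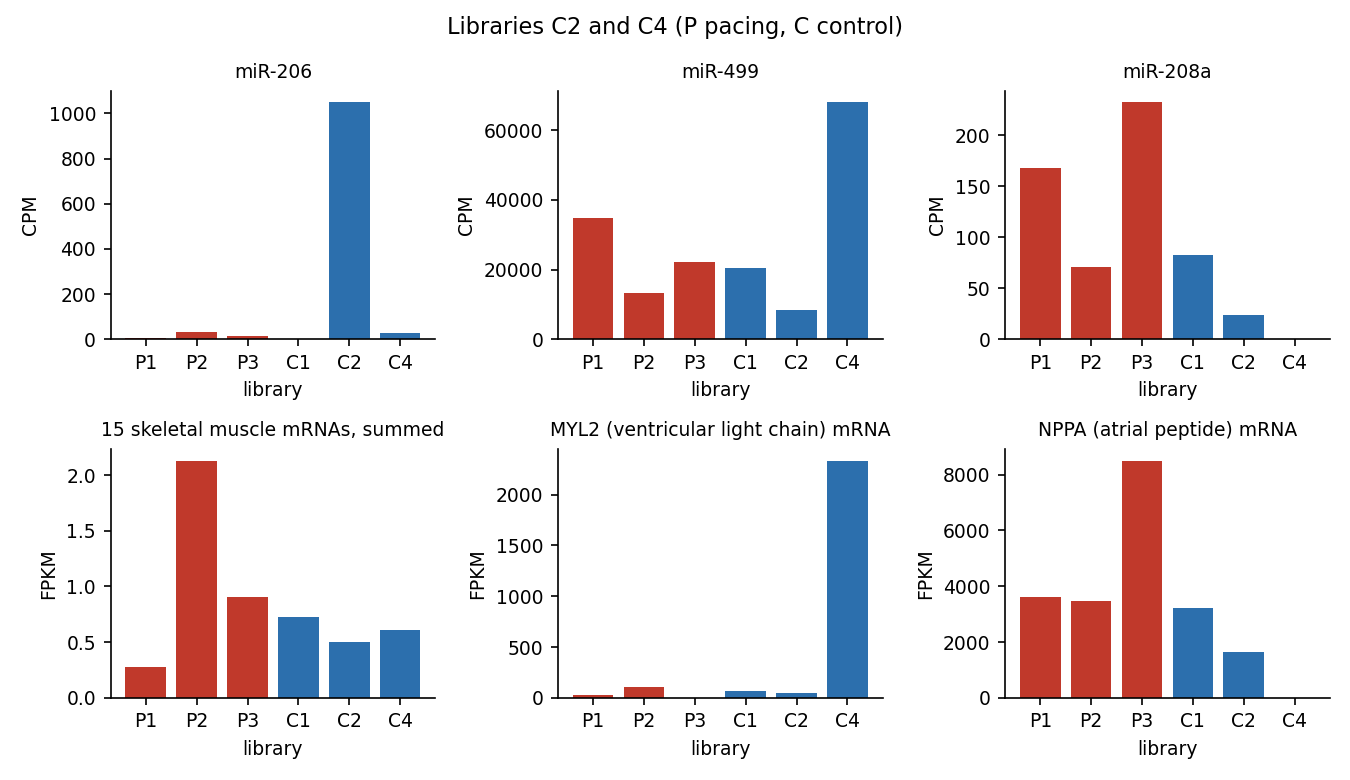
Values of single libraries, paced P1 to P3 in red and control C1, C2 and C4 in blue: miR-206, miR-499 and miR-208a in CPM (small RNA), and the summed level of 15 skeletal muscle mRNAs, MYL2 and NPPA in FPKM (total RNA). miR-206 stands out in C2 (1049 CPM), and C4 has the highest MYL2 (2331 FPKM) and the lowest NPPA (7.78 FPKM).

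mRNAs that act before and after the miRNAs were tested with limma on log2 of FPKM plus 1, among the 11583 mRNAs whose mean reached 1 FPKM. It called 3 of them (0.0259%), the mitochondrial ATP6, COX3 and MT-ATP8, all listed at 0 in the 3 paced libraries and named after their values were seen. At an unadjusted p under 0.05 there were 642 (5.54%), and 46.7% of all fold changes were positive. Groups did not overlap in FPKM for 11.0% of them (6.14% lower and 4.90% higher with pacing). In the lists below this held for 2 of 8 transcription factors, 1 of 8 maturation genes, 1 of 14 targets of miR-1 and miR-206, and 2 of 22 targets of miR-133.

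Of the transcription factors of the miR-1 and miR-133 genes, 8 of 9 were tested, 4 with a positive and 4 with a negative fold change, and 0 were called (median 0.10, against -0.03 over all mRNAs). MYOCD, the SRF partner myocardin, was 10.5, 13.1 and 13.6 FPKM in P1, P2 and P3, against 17.8, 19.0 and 16.9 FPKM in C1, C2 and C4. Each paced library was below each control, and the log2 fold change was -0.50 (SE 0.20, limma adjusted p = 0.879). MEF2C, the other one whose groups did not overlap, was 40.4, 44.6 and 39.1 FPKM with pacing, against 38.9, 29.4 and 24.8 FPKM in controls (log2 fold change 0.43, limma adjusted p = 0.892). TBX5, a T-box factor of the heart, was 73.6, 69.5 and 96.5 FPKM with pacing, against 80.7, 29.1 and 30.0 FPKM in controls (log2 fold change 0.92, limma adjusted p = 0.884). MIB1, which contains MIR1-2 and MIR133A, was 23.4, 18.8 and 20.4 FPKM with pacing, against 22.0, 17.1 and 20.3 FPKM in controls. Its log2 fold change was 0.07 (SE 0.20, limma adjusted p = 0.962).

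Of the genes that make and load miRNAs, 8 of 9 were tested, 1 had a positive and 7 a negative fold change, and 0 were called (median -0.20). DICER1, which cuts the precursor hairpin, was 15.5, 14.02 and 14.9 FPKM in P1, P2 and P3, against 19.5, 17.4 and 18.5 FPKM in C1, C2 and C4. Its log2 fold change was -0.30 (SE 0.18, limma adjusted p = 0.892). AGO1, an Argonaute that holds miRNAs, was the positive one, at 7.51, 5.92 and 7.63 FPKM with pacing, against 6.15, 4.41 and 4.10 FPKM in controls (log2 fold change 0.46, limma adjusted p = 0.892).

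Of 16 mRNAs known in mammals as targets of the seed of miR-1 and miR-206, 14 were tested. 3 had a positive and 11 a negative fold change, 0 were called, and the median was -0.24. Without C1, 5 of the 14 were positive. KCNJ2, the inward rectifier potassium channel, was 4.40, 1.62 and 1.17 FPKM in P1, P2 and P3, against 2.64, 9.21 and 34.1 FPKM in C1, C2 and C4. The highest value was that of C4, and the log2 fold change was -1.80 (SE 0.80, limma adjusted p = 0.884) with all libraries and -0.96 without C4. PPP2R5A, a subunit of protein phosphatase 2A, was 36.3, 33.8 and 32.7 FPKM with pacing, against 65.0, 39.96 and 44.9 FPKM in controls (log2 fold change -0.50, limma adjusted p = 0.892). FABP3, the fatty acid binding protein of heart muscle, had the largest positive fold change of these targets (0.70, limma adjusted p = 0.892).

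Of 24 listed mRNAs known in mammals as targets of miR-133, 22 were tested, 10 with a positive and 12 with a negative fold change. 0 were called and the median was -0.01. HCN2, a pacemaker channel, had the smallest p among them. It was 2.98, 2.57 and 1.95 FPKM in P1, P2 and P3, against 0.553, 0.995 and 0.161 FPKM in C1, C2 and C4, and each paced library was above each control. Its log2 fold change was 1.18 (SE 0.32, limma adjusted p = 0.879) with all libraries and 0.98 without C4. PPP2CA, the catalytic subunit of protein phosphatase 2A, was 86.9, 87.8 and 89.6 FPKM with pacing, against 104.3, 133.3 and 124.3 FPKM in controls. Each paced library was below each control, and its log2 fold change was -0.44 (SE 0.19, limma adjusted p = 0.879). FGFR1, a fibroblast growth factor receptor, was 28.8, 16.2 and 16.7 FPKM with pacing, against 55.0, 58.5 and 20.0 FPKM in controls. Its log2 fold change was -0.98 (limma adjusted p = 0.892) with all libraries and -1.47 without C4.

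**Figure D5:**
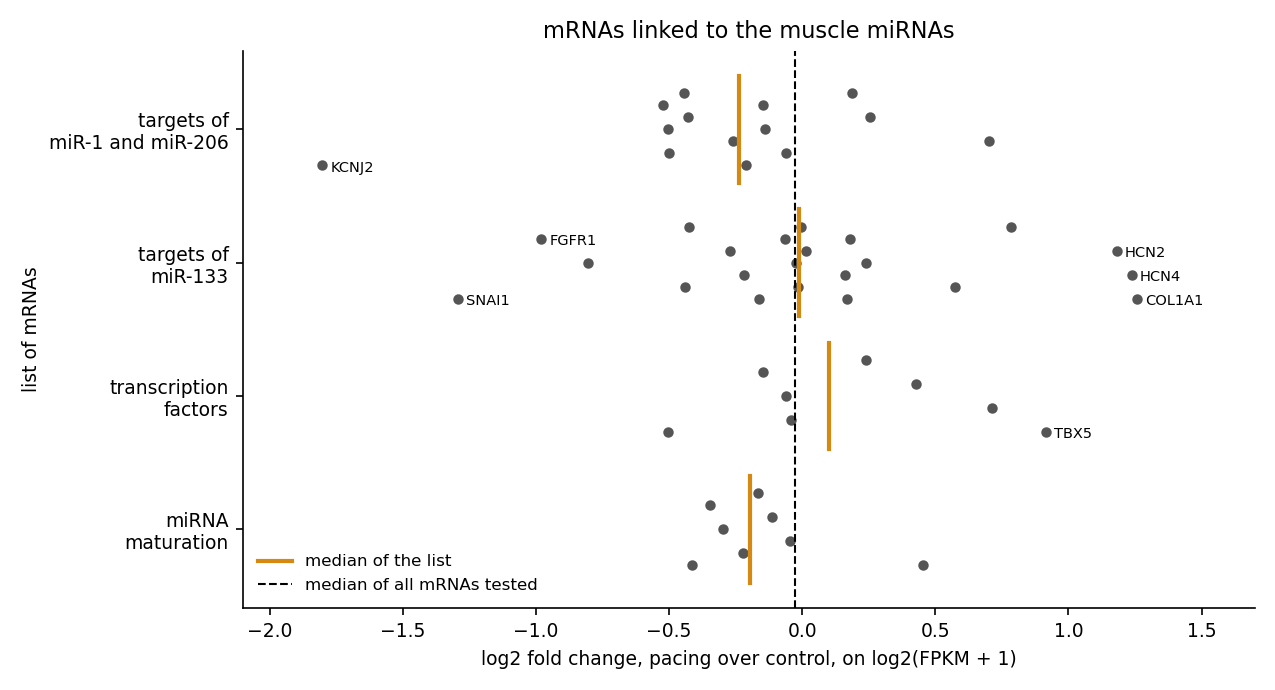
Log2 fold change (pacing over control, on log2 of FPKM plus 1) of the tested mRNAs of 4 lists, 1 point for each mRNA, with the median of each list (bar) and of all 11583 mRNAs tested (dashed line, -0.03). The targets of miR-1 and miR-206 have a median of -0.24 and those of miR-133 a median of -0.01, and 0 of the points were called.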

How the data were processed

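The authors sequenced small RNA and ribosomal RNA-depleted total RNA from dog atria. Their processing notes name cutadapt 1.9.3, Bowtie2, HISAT2, Cufflinks and Cuffdiff with canFam3; the miRNA aligner is not given in the sources used here. The deposited miRNA table holds tag counts, in which a blank cell was read as 0. A second table deposited by the authors holds a normalized score (tags times a factor per library, rounded) and was used in 1 alternative. mRNA values are FPKM computed by the authors, and their depth was not examined. The 30 remaining per-sample columns were not used.

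Repeated mature miRNAs entered once. The 2-sided quasi-likelihood test of edgeR 4.0.16 with TMM scaling was applied to the 251 miRNAs with 10 or more tags summed, and limma 3.58.1 to FPKM (trend, log2 of FPKM plus a pseudocount of 1, mean of 1 FPKM or more), with Benjamini-Hochberg adjustment. The study states no test for miRNAs. Shares and ratios had exact permutation tests. Alternatives were DESeq2 1.42.0, other scalings, filters, pseudocounts and tables, and each library left out. Leaving out C2 and C4 together, entering each sequence once and summing miR-133a and miR-133c were chosen after seeing the data. The code was tested on simulated data. The exact intervals of single libraries cover counting error only, and the edgeR intervals of fold changes also cover the spread between dogs. Tags carry no molecular identifiers. No batch or pairing is stated.

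The members and lists were chosen with earlier results of these data known. All members are named. Of other miRNAs, the 3 most correlated with each member of 100 or more tags on average and those of the marker lists are named. Of each list of mRNAs linked to the miRNAs, up to 4 genes with the smallest p are named. MYL2, MYL4 and NPPA show how C4 stands apart. GJA5, KCNA5 and NR2F2, the rest of the atrial list, and the skeletal muscle genes at 0 in all libraries were named after their values were seen.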

Additional observations from a re-analysis of the deposited data

How the results depend on the processing

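Counting error limits miR-206 (3 to 34 tags outside C2), miR-133b and miR-133c, and with 3 dogs a group the 95% interval of each member is wide (-1.12 to 1.43 on the log2 scale for miR-1). miR-133b kept its sign and stayed short of the threshold in 19 of 19 alternatives. miR-1 turned negative with the normalized table (-0.053), without C1 (-0.029) and without P2 (-0.24), within -0.24 to 0.88 with 1 library left out. miR-133a turned positive with total tags (0.056), total tags without the members (0.039), upper quartile scaling (0.31), filterByExpr (0.045), limma on CPM (0.14), the normalized table (0.017), C4 as pacing (0.64), without C4 (0.37), without P1 (0.13), without P2 (0.19) and without C2 and C4 (0.31), within -0.29 to 0.37 with 1 library left out. miR-133c was -0.095 without P3 and up to 0.91 without another library. miR-206 was -5.34 to 0.28 with 1 library left out (0.28 without C2) and 2.89 without C2 and C4 (C1, with 3 tags, then stands alone and is assumed to vary like the pacing group), and it passed the adjusted threshold of edgeR with no filter (-4.29, adjusted p = 6.51e-09) and without C1. With limma it was -1.78 on CPM (adjusted p = 0.851) and -1.80 on the normalized table (adjusted p = 1). The cause was not tested.

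miRNAs called by the adjusted p numbered 1 with total tags, 16 with no filter, 4 with DESeq2, 1 without C2 and C4, and 0 to 4 with 1 library left out. At 2-fold with p of 0.05 or less there were 26, and 43 with no filter, 16 with limma on CPM, 0 with the normalized table, 11 without C2 and C4, and 15 to 39 with 1 library left out. The log2 ratio difference of miR-206 over miR-1 was -1.83 with all libraries, 0.70 without C2, -2.50 without C4 and 1.91 without both. Over miR-206, with all, without C2 and without both, it was 1.903, -0.76 and -2.01 for miR-133a, 3.05, 0.42 and -0.84 for miR-133b, and 2.29, -0.397 and -1.66 for miR-133c, so leaving out C2 alone turned the sign of all but miR-133b. mRNAs called numbered 26 with C4 as pacing and 3 to 20 with 1 library left out (20 without C4). Positive fold changes numbered 3 to 5 of 14 targets of miR-1 and miR-206 with 1 library left out, and 4 of 22 targets of miR-133 with C4 as pacing. No paired analysis was possible because the columns of the 2 groups share only numbers, and no source says that a number pairs dogs.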

Other observations

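Of the 6 fibroblast or fibrosis miRNAs, 5 had a positive and 1 a negative fold change, and 0 passed the adjusted threshold of edgeR. miR-21, abundant in fibroblasts and many other cells, had 131191, 74022 and 52038 CPM in P1, P2 and P3, against 25289, 28172 and 17830 in C1, C2 and C4. Each paced library was above each control, and the log2 fold change was 1.60 (SE 0.40, edgeR adjusted p = 0.266). Groups did not overlap in CPM, in either direction, for 9.16% of the 251 miRNAs tested. miR-29b, a regulator of collagen mRNAs, had 72.1, 39.8 and 84.3 CPM, against 18.1, 8.81 and 16.8 in controls (log2 fold change 1.99, edgeR adjusted p = 0.266). The log2 fold changes of the others were 1.502 for miR-29c, 0.57 for miR-29a, 0.33 for miR-214 and -0.09 for miR-199, and the groups of all 4 overlapped in CPM.

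Of the smooth muscle miRNAs, miR-143 had a log2 fold change of -0.07 and miR-145 of 0.40. The erythroid miR-486 was lower in each paced library, with 354 to 1427 CPM, against 1575 to 1630 in controls (log2 fold change -1.50, edgeR adjusted p = 0.349). The erythroid miR-451 had 327 to 2067 CPM with pacing and 524 to 1251 in controls (-0.51, edgeR adjusted p = 0.777). The 4 leukocyte miRNAs did not share a direction. miR-142 had 18.1 to 202 CPM with pacing and 160 to 179 in controls (-1.32, edgeR adjusted p = 0.439), and miR-223 was at -0.54. miR-155 was higher in each paced library, with 90.1, 74.7 and 50.01 CPM, against 35.2, 44.6 and 41.9 in controls (0.61, edgeR adjusted p = 0.682), and miR-150 was at 0.13. Of the epithelial or liver miRNAs, miR-200c, miR-203, miR-429, miR-122 and miR-375 are listed and none exceeded 33.1 CPM. miR-375 (33.1 CPM) and miR-122 (21.5 CPM) were highest in C2, the library with the high miR-206.

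Among mRNA markers, 8 fibroblast genes summed to 640 to 859 FPKM with pacing and 317 to 820 FPKM in controls, and 4 adipocyte genes to 3.40 to 7.16 FPKM with pacing and 0.813 to 523 FPKM in controls, where C1 and C2 were high. Endothelial genes summed to 236 to 445 FPKM with pacing and 199.6 to 400.4 FPKM in controls, smooth muscle genes to 397 to 502 FPKM with pacing and 51.1 to 608 FPKM in controls, leukocyte genes to 6.42 to 67.0 FPKM with pacing and 17.2 to 119.6 FPKM in controls, and mesothelial genes to 0.641 to 1.99 FPKM with pacing and 0.310 to 2.29 FPKM in controls. The part of these cell types in the levels of the 5 muscle miRNAs was not tested.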
